A study of Mus musculus with 16 samples.

Results

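The genes described are 8 that encode potassium and calcium channels of the vessel wall, or subunits of them: Kcns3, Kcna5, Kcnma1, Kcnmb1, Kcnj8, Abcc9, Kcnj2 and Cacna1c. They were chosen by name, as 8 of the 24011 genes in the deposited count table, and all 8 are listed there. The choice was made with their level in aorta and their difference between estradiol (E2) and vehicle in aorta in view, and Kcns3 was known to be higher with E2 in all 4 aorta pairs. Those differences are therefore given as a description, with no test.

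RNA was sequenced from 16 libraries in 4 groups of 4: aorta with E2, aorta with vehicle, liver with E2 and liver with vehicle. All tissue came from wild-type female C57BL/6 mice that had their ovaries removed at 6 to 7 weeks of age and gave the tissue 1 week later. Aortas, or pieces from the tip of the main liver lobe, were kept for 4 h in culture medium with 10 nM E2, the chief estrogen made by the ovary, or with ethanol as its vehicle. Both arms thus lack ovarian hormones, and both spent the same time in culture. The series text gives 2 replicates per condition, each of tissue from 4 mice, whereas the library protocol also describes libraries made from just 1 aorta or 1 liver piece. Library names end in o1, o2, n1 or n2, and no label explains these endings. The protocol names 2 kits (Ovation from 50 ng of RNA, and TruSeq with poly-A selection from 600 ng), with separate sequencing instruments for the first and the second Ovation replicate. The fits carry a batch term of 3 levels (o1, o2 and n), which assumes that the o libraries are the Ovation ones on different instruments and the n libraries the TruSeq ones; that assumption is not stated in the labels.

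The tone of an artery is set by the membrane potential of its smooth muscle cells. Opening of potassium channels moves the potential away from the threshold of voltage-gated calcium channels and relaxes the cell, while calcium entering through those channels drives contraction. Estrogen is known as a vasodilator, and potassium channels are among the targets studied for its fast actions on arteries. The 8 genes stand for 5 parts of this system. Cacna1c encodes the pore of the L-type calcium channel. Kcnma1 encodes the pore of the large-conductance calcium-activated potassium channel, and Kcnmb1 its smooth muscle beta subunit, which raises the channel's sensitivity to calcium. Kcnj8 and Abcc9 encode the pore and the sulfonylurea receptor of the vascular ATP-sensitive potassium channel. Kcnj2 encodes a strong inward rectifier. Kcna5 encodes a delayed-rectifier voltage-gated pore, and Kcns3 a silent subunit that forms no channel alone but alters the gating of channels it joins.

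Kcns3 lies on the minus strand of chromosome 12 (GRCm38, chr12:11090202-11151056). RefSeq lists a pair of promoter windows for it, shown here because Kcns3 had the largest E2 difference of the 8 genes, together with the window of Kcnmb1, which had the largest difference between aorta and liver. Each window holds 250 bases before and 50 bases after a transcription start listed by RefSeq, read 5′ to 3′ along the gene's strand. The capitals mark the 50 bases after that start. The Kcns3 span given above begins upstream of both of its listed starts. Most lower-case bases of window 1 and all of window 2 thus lie within that span, so lower case does not mean untranscribed.
Kcns3 window 1, chr12:11150793-11151092, minus strand: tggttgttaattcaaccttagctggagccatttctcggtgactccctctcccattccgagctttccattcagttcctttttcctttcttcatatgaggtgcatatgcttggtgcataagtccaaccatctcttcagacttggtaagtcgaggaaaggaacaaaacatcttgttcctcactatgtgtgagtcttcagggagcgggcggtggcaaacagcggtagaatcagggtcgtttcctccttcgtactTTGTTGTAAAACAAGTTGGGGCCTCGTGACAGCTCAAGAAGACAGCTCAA
Kcns3 window 2, chr12:11150324-11150623, minus strand: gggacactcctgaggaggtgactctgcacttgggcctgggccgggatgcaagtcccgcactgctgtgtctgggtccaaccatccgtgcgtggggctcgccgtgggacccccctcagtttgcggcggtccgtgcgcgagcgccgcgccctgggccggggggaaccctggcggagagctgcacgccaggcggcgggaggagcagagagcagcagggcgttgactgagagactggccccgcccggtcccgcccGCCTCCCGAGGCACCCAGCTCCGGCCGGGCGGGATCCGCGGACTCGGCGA
Kcnmb1, chr11:33962763-33963062, plus strand: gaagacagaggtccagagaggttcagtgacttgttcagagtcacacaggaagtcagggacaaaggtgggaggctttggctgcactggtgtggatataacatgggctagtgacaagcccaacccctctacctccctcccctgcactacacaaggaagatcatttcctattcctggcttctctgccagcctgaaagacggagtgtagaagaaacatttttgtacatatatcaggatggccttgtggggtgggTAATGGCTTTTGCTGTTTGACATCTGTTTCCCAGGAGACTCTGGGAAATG
The Kcns3 windows differ in base composition, with 47% G and C in the first and 74% in the second. RefSeq holds 11 windows for the 8 genes, and they were searched on both strands for 4 patterns. The estrogen response element (GGTCA and TGACC separated by any 3 bases) was in none of them and in 0.07% of all 32851 mouse windows. Its half-site AGGTCA was in none and in 16.3% of all windows, and the CArG box, the binding motif of serum response factor, was in none and in 1.63%. The 5 letters GGTCA, which are part of the half-site, occurred in the Abcc9 window, 19 bases after the start, and in 1 of the Cacna1c windows, 74 bases before it, against 40.5% of all windows. These windows cover only 300 bases each, and the build is not the mm9 build to which the authors aligned.

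Aorta libraries held between 6471319 and 16905441 gene reads with E2 and between 6042073 and 19823982 with vehicle. Liver libraries held between 3896733 and 11796977 with E2 and between 5210693 and 13078032 with vehicle. Levels are counts scaled to 1e+06 reads (CPM) on normalized library sizes. The labelled tissues were checked with markers: the summed level of 10 smooth muscle markers was 11003 to 29577 CPM in aorta with E2 and 11451 to 18634 CPM in aorta with vehicle, against 478 to 632 CPM in liver with E2 and 462 to 590 CPM in liver with vehicle. Of the aorta libraries, o1 with vehicle also held 248 CPM of cardiac muscle markers and 451 CPM of hepatocyte markers, and n2 with vehicle held 199 CPM of lymphocyte markers. In the E2 arm, o1 held 190 CPM of neuron and glia markers and 101 CPM of skeletal muscle markers. Each of these was the highest of its list in aorta. Adipocyte markers summed to 2148 to 3866 CPM in aorta with E2 and 2156 to 4193 CPM in aorta with vehicle. Their part in the results below was not tested.

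**Figure D1:**
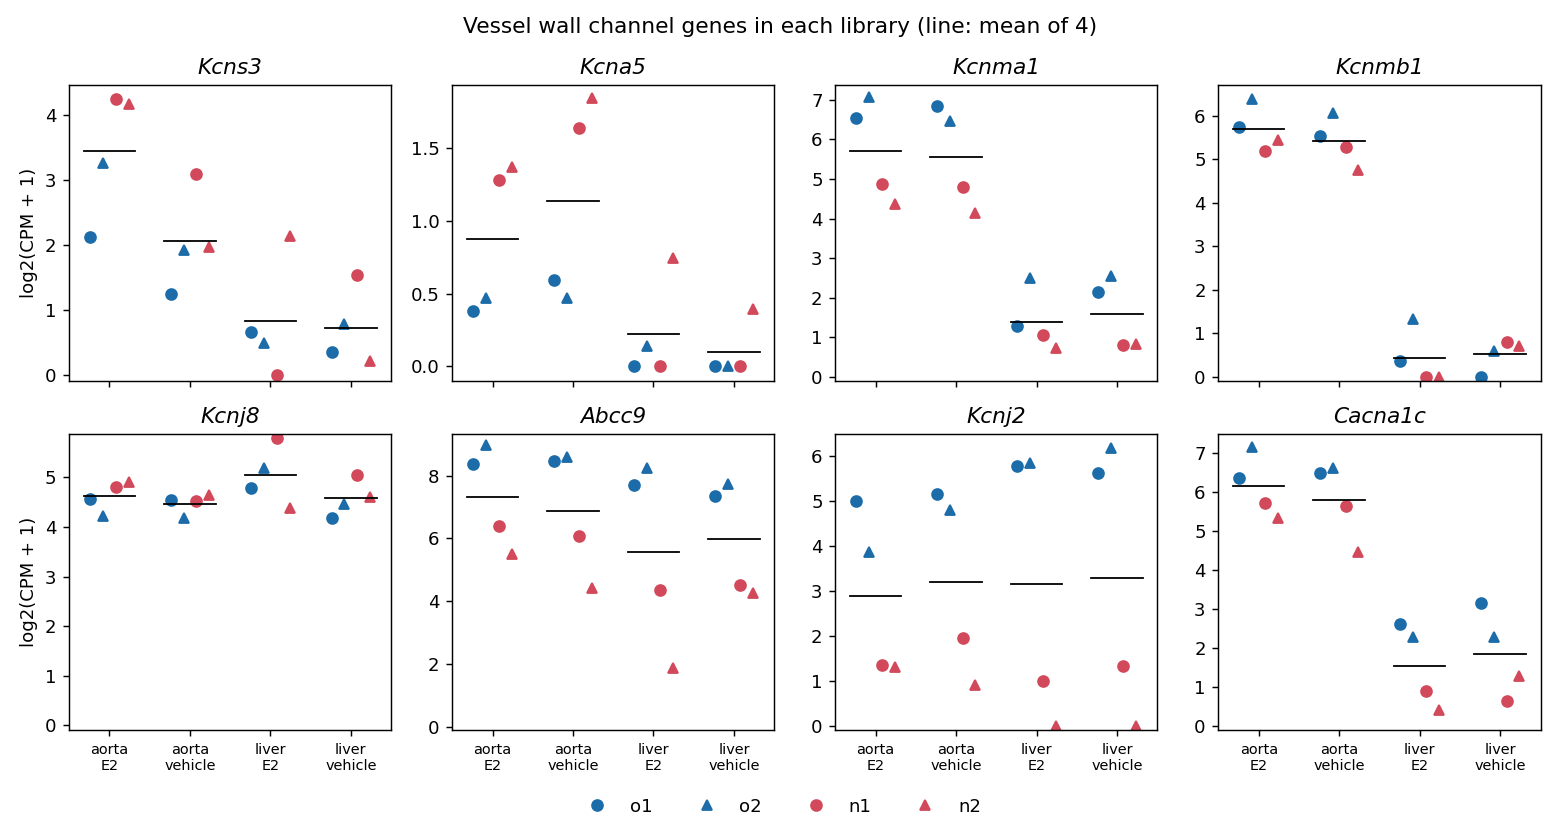
Level of each channel gene in each of the 16 libraries, as log2(CPM + 1), by group; blue points are o libraries, red points n libraries, circles end in 1 and triangles in 2, and lines are means of 4. Kcnma1, Kcnmb1 and Cacna1c lie higher in every aorta library than in every liver library of the same treatment, while Kcnj2 and Abcc9 are split mainly by library letter.

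In aorta, the 8 genes covered a wide range of levels, and their order was set by length as well as by counts. Per kilobase of the longest annotated transcript, as CPM divided by that length (RPKM), Abcc9 was highest at 29.6 ± 25.0 over the 8 aorta libraries (SD, both treatments). Kcnmb1 followed at 11.6 ± 4.36 RPKM, Kcnj8 at 8.93 ± 1.61, Cacna1c at 5.41 ± 2.92, Kcnma1 at 5.36 ± 3.88, Kcns3 at 2.61 ± 2.22, Kcnj2 at 2.58 ± 2.67 and Kcna5 at 0.406 ± 0.311. Each gene differed from the next in this order by less than the larger of their SDs, except Kcnj8 and Cacna1c, whose gap was wider than either SD. Kcna5 was the lowest of the 8 in the o libraries, at 0.139 ± 0.0300 RPKM (SD, n = 4), and Kcnj2 the lowest in the n libraries, at 0.309 ± 0.155. In the o libraries Abcc9 led at 52.0 ± 10.1 RPKM, and in the n libraries Kcnj8 led at 10.0 ± 1.23, with Kcnmb1 at 8.49 ± 1.68 and Abcc9 at 7.16 ± 3.65. With the mean length of all annotated transcripts in place of the longest, Kcnma1 came to 19.2 RPKM and Cacna1c to 10.8, since both genes have many short annotated forms. Lengths are from GENCODE M21 on GRCm38, not from the annotation used for counting, so these values are approximate.

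Kcns3, the silent subunit gene, had the largest E2 difference of the 8 in aorta. With E2 its levels were 3.33, 8.53, 17.95 and 16.91 CPM in the libraries o1, o2, n1 and n2, and with vehicle they were 1.36, 2.77, 7.53 and 2.90 CPM. The E2 library was the higher of the pair for each suffix, although the groups overlap, because E2 in o1 (3.33 CPM) lies below vehicle in n1 (7.53 CPM). On the log2(CPM + 1) scale the pairs differed by 0.87, 1.34, 1.15 and 2.20. Mean levels were 11.7 ± 6.98 CPM with E2 and 3.64 ± 2.68 CPM with vehicle (SD, n = 4 each), and the fitted log2 fold change was 1.61 ± 0.31 (SE), a ratio of 3.06. These means rest on 1049 reads with E2 and 291 with vehicle, of which o1 gave 22 and 8. Fitted within the o libraries alone the difference was 1.496 ± 0.470, and within the n libraries alone 1.72 ± 0.50. Leaving out any library, or both libraries of a suffix, gave 1.35 to 2.00. With edgeR, 0% of the 13698 genes tested passed an adjusted p of 0.05 in this comparison, and 495 had an unadjusted p under 0.05. DESeq2 called 24 genes, Kcns3 among them, and limma voom called 0. With edgeR Kcns3 was also among the genes called without vehicle n2 (17 genes) and without both n2 libraries (35 genes). Since this contrast chose the gene, nothing is read from these calls. In all, 8.07% of the genes tested (1105) were higher with E2 in all 4 suffixes, and 14 of those had a larger log2 fold change.

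The summed level of the smooth muscle markers differed between E2 and vehicle by −0.23, 0.67, −0.06 and 0.14 on a log2 scale in o1, o2, n1 and n2, and its part in the Kcns3 difference was not tested. Per 10000 CPM of these markers Kcns3 stood at 2.47, 2.89, 16.3 and 12.4 CPM with E2, and at 0.862, 1.48, 6.58 and 2.35 CPM with vehicle, in the same order of libraries. In whole tissue, more RNA per cell and more cells of the expressing type cannot be told apart. Over the 8 aorta libraries, with the means of o1, o2 and n removed, the genes most like Kcns3 were Mmp19 (r = 0.997), Elk3 (0.995) and Zfp652 (0.988). These values are the highest over all genes tested in aorta and describe 8 libraries that share the treatment. Removing the o1 and o2 means makes the E2 and vehicle values of each mirror each other, so fewer than 8 values are independent. Mmp19 is a matrix metalloproteinase gene.

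**Figure D2:**
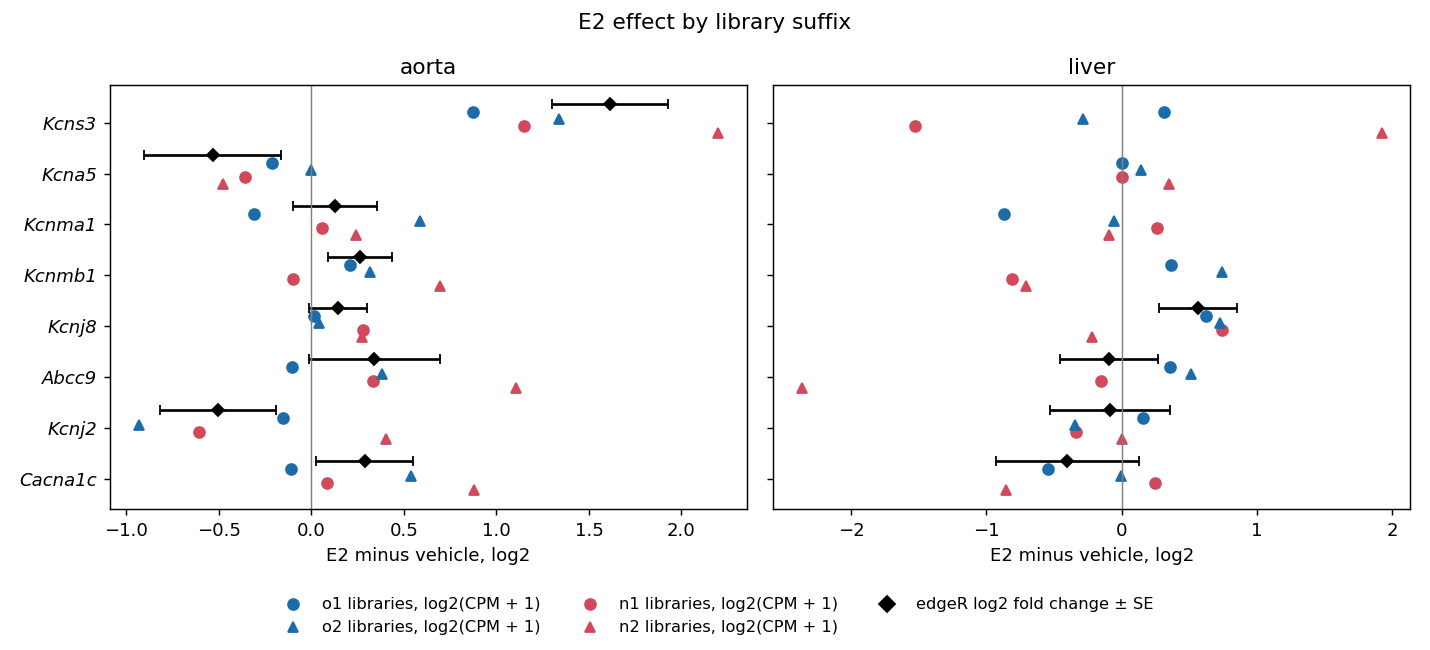
E2 minus vehicle for each channel gene in aorta (left) and liver (right), on a log2 scale; coloured points are single suffixes on log2(CPM + 1), black diamonds are edgeR log2 fold changes with SE, and genes without a diamond did not pass the filter on low counts. In aorta the 4 Kcns3 points lie between 0.87 and 2.20, while in liver they lie on both sides of 0.

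The other 7 genes differed less between E2 and vehicle in aorta. Kcna5, the delayed-rectifier pore, was the one gene lower with E2 in all 4 suffixes, at 0.30, 0.38, 1.43 and 1.58 CPM with E2 and 0.51, 0.39, 2.11 and 2.59 CPM with vehicle. The o1 values rest on 2 and 3 reads and the o2 difference is 0.00 on the log2(CPM + 1) scale, so this direction comes from the n libraries. Its log2 fold change was −0.53 ± 0.37, and 6.43% of all genes tested were lower in all 4 suffixes. Kcnj8, the pore of the vascular ATP-sensitive channel, was higher with E2 in all 4 suffixes, at 22.5, 17.7, 27.0 and 29.2 CPM with E2 and 22.3, 17.2, 22.1 and 23.99 CPM with vehicle, a log2 fold change of 0.15 ± 0.16. In o1 and o2 the groups differ by less than 1 CPM.

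Kcnj2, the inward rectifier, was lower with E2 in o1, o2 and n1 and higher in n2. Its levels were 30.9, 13.6, 1.54 and 1.46 CPM with E2 and 34.4, 26.9, 2.87 and 0.862 CPM with vehicle, and its log2 fold change was −0.51 ± 0.31. Within each treatment the o libraries were far above the n libraries, and this gap is wider than any difference between the treatments. The remaining 4 genes were each higher with E2 in 3 of 4 suffixes. Kcnmb1, the beta subunit, was lower with E2 in n1 and had a log2 fold change of 0.26 ± 0.17, with 52.5, 82.8, 35.4 and 42.8 CPM with E2 and 45.3, 66.3, 38.0 and 26.0 CPM with vehicle. Kcnma1, its pore partner, was lower with E2 in o1, at 92.0, 132.6, 28.1 and 19.8 CPM with E2 and 114.2, 87.9, 26.9 and 16.6 CPM with vehicle, with 0.13 ± 0.23. Leaving out single libraries moved that value between −0.03 and 0.31.

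Abcc9 and Cacna1c were also lower with E2 in o1 and higher in the other suffixes. Abcc9, the sulfonylurea receptor, stood at 327.7, 498.1, 83.6 and 44.7 CPM with E2 and 352.8, 381.7, 66.3 and 20.2 CPM with vehicle, a log2 fold change of 0.34 ± 0.35. Cacna1c, the calcium channel pore, stood at 81.8, 141.0, 51.9 and 39.7 CPM with E2 and 88.5, 96.8, 48.9 and 21.1 CPM with vehicle, a log2 fold change of 0.29 ± 0.26. For both genes the n2 pair differed most, by 1.11 and 0.88 on the log2(CPM + 1) scale, and without that pair the log2 fold changes were 0.20 ± 0.13 for Abcc9 and 0.18 ± 0.14 for Cacna1c. Some markers of vessel wall cells differed between E2 and vehicle much as these genes and Kcnma1 did, and others did not. In o1, o2, n1 and n2, the contractile kinase gene Mylk differed by −0.20, 0.56, 0.01 and 0.91 between E2 and vehicle, and the pericyte receptor gene Pdgfrb by −0.08, 0.58, −0.03 and 1.15, both picked after their values were seen. The summed pericyte markers differed by −0.05, 0.33, −0.16 and 0.52, with 5 of 6 markers higher. Of the 10 smooth muscle markers 8 were higher, and their sum differed by −0.23, 0.67, −0.06 and 0.14. The summed endothelium markers differed by −0.09, 0.27, −0.21 and −0.04, with 5 higher and 3 lower. The summed adventitial fibroblast markers differed by −0.17, −0.14, −0.07 and 0.16, with 0 higher and 8 lower. None of the markers in these lists was called. The part of these cells in the differences was not tested. Once the means of o1, o2 and n were removed, Abcc9 and Cacna1c followed each other across the aorta libraries (r = 0.971 over 8 libraries), and the gene most like Cacna1c was Nalcn, a sodium leak channel gene (r = 0.999). Nalcn had the highest r of all genes tested in aorta, and the same search gave a top r of 0.987 for Kcnj8. Removing the o1 and o2 means makes the E2 and vehicle values of each mirror each other, so fewer than 8 values are independent. Over the 8 genes the median log2 fold change was 0.20, beside −0.01 over all genes tested. Since the 8 genes were chosen with this contrast in view, nothing is read from their median. Within the o libraries alone, the 8 genes other than Kcna5, which did not pass the filter there, ran from −0.59 for Kcnj2 to 1.496 for Kcns3, and within the n libraries alone all 8 ran from −0.64 for Kcna5 to 1.72 for Kcns3.

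The balance of partners within a channel was compared as log2 ratios of CPM with 1 CPM added. Kcnma1 to Kcnmb1 stood at 0.80, 0.67, −0.32 and −1.07 with E2 and at 1.32, 0.40, −0.48 and −0.62 with vehicle. Kcnj8 to Abcc9 stood at −3.80, −4.74, −1.60 and −0.60 with E2 and at −3.92, −4.40, −1.54 and 0.24 with vehicle. For both ratios the E2 minus vehicle differences had mixed signs, with means of −0.14 ± 0.41 and −0.28 ± 0.42 (SD over 4 suffixes), while every n library lay below every o library for the first ratio and above every o library for the second. These are ratios of counts not divided by length, so they show shifts between libraries and not the stoichiometry of subunits.

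In liver, 4 of the 8 genes passed the filter on low counts, Kcnj8, Abcc9, Kcnj2 and Cacna1c, and 0 of them passed the test between E2 and vehicle, where 0% of 11726 genes did. At an unadjusted p under 0.05 there were 0 of the 4 with edgeR, 0 with DESeq2 and 1 with limma voom, Kcnj8. Among all genes tested the shares were 4.28% with edgeR, 5.15% with DESeq2 and 6.87% with limma voom. Kcnj8 stood at 26.8, 35.5, 54.5 and 19.9 CPM with E2 and at 17.1, 21.03, 32.3 and 23.4 CPM with vehicle, higher with E2 in 3 of 4 suffixes, with a log2 fold change of 0.56 ± 0.29 (SE, edgeR, adjusted p = 0.939). Abcc9 came to −0.09 ± 0.36 (adjusted p = 0.981), Kcnj2 to −0.09 ± 0.44 (0.984) and Cacna1c to −0.40 ± 0.53 (0.954). None of the 8 was higher with E2 in all 4 liver suffixes, as 5.54% of genes tested were, and none was lower in all 4, as 6.38% were. Kcns3 was too low in liver to be tested, at 0.58, 0.40, 0 and 3.38 CPM with E2 and 0.27, 0.71, 1.88 and 0.16 CPM with vehicle, higher with E2 in 2 of 4 suffixes. The largest of these values, 3.38 CPM in n2, is 10 reads, and a count of 0 in n1 with E2 allows up to 0.367 CPM (3 counts, counting error only). The E2 effect of aorta minus that of liver was 1.53 ± 1.11 for Kcns3, an SE that reflects the few liver reads. It ran from 0.57 without both n1 libraries to 3.08 without both n2 libraries, and was 3.04 without liver n2 with E2 alone. Among the genes with more liver reads it was 0.66 ± 0.47 for Cacna1c, 0.44 ± 0.59 for Abcc9 (−0.07 without both n2 libraries, −0.32 ± 0.27 in the o and 1.37 ± 1.00 in the n libraries alone), −0.40 ± 0.62 for Kcnj2 and −0.41 ± 0.37 for Kcnj8, where 0% of 14190 genes tested passed.

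Aorta and liver were compared within the E2 libraries and, separately, within the vehicle libraries. Levels in aorta were in view when the genes were chosen, so these values too are a description, given with no p. Kcnj8, Abcc9, Kcnj2 and Cacna1c also passed the filter in liver alone, whereas Kcnmb1, Kcnma1 and Kcns3 passed here through their aorta counts. At an adjusted p under 0.05 and a log2 fold change over 1 in size, edgeR called 48.3% of 13061 genes with E2, 26.3% higher and 22% lower in aorta, and 47.5% of 12607 genes with vehicle, 24.1% higher and 23.4% lower. Past these thresholds in both comparisons were 5 of the 8 genes, Kcnmb1, Kcnma1, Cacna1c, Kcns3 and Abcc9, all on the aorta side, and nothing is read from that count. Without the batch term it was 3 with E2 and 3 with vehicle, where 2655 of 13061 and 2447 of 12607 genes were called.

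The calcium-activated channel and the L-type channel showed the widest gap. Kcnmb1 averaged 53.4 ± 20.8 CPM in aorta and 0.451 ± 0.724 CPM in liver with E2, and 43.9 ± 16.9 CPM in aorta and 0.473 ± 0.331 CPM in liver with vehicle (SD, n = 4 each). Its log2 fold change was 7.17 ± 0.69 with E2 and 6.39 ± 0.55 with vehicle (SE). The liver levels rest on 0 to 15 reads per library, and 3 of the 8 liver libraries held 0, so its ratio is imprecise. Kcnma1 averaged 68.1 ± 53.7 CPM in aorta and 1.97 ± 1.82 CPM in liver with E2, and 61.4 ± 47.2 CPM in aorta and 2.47 ± 2.05 CPM in liver with vehicle. Its log2 fold change was 5.08 ± 0.43 with E2 and 4.63 ± 0.37 with vehicle. Cacna1c averaged 78.6 ± 45.2 CPM in aorta and 2.56 ± 2.34 CPM in liver with E2, and 63.8 ± 35.3 CPM in aorta and 3.46 ± 3.33 CPM in liver with vehicle, a log2 fold change of 5.26 ± 0.49 with E2 and 4.47 ± 0.46 with vehicle. For these 3 genes every aorta library lay above every liver library of the same treatment, as for 14.6% of genes tested with E2 and 12.7% with vehicle.

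Kcns3 had an aorta minus liver log2 fold change of 3.75 ± 0.88 with E2 and of 2.22 ± 0.70 with vehicle, on 0 to 10 reads per liver library. The vehicle value no longer passed the thresholds under 5 of 16 alternatives: without the batch term, in the o or the n libraries alone, without liver n2 and without aorta n1. The 2 log2 fold changes share no library, but the difference between them is the E2 effect of aorta minus that of liver, given above with its larger SE. Kcna5 did not pass the filter in either comparison over the o and n libraries together. Fitted in the n libraries alone, it passed the thresholds with E2 and with vehicle, on the aorta side. Its n libraries held 77 reads in aorta and 2 in liver with E2, and 86 and 2 with vehicle. It thus entered through its aorta counts, and nothing is read from those calls. Kcna5 was also past the thresholds with vehicle when no filter was used. In liver it had 3 reads in all with E2 and 2 with vehicle, against 85 and 97 in aorta, and its zero counts in 5 liver libraries allow levels up to 0.305 to 0.864 CPM, a range that takes in its levels in the o libraries of aorta. A difference between the tissues was thus not detectable at this depth in the o libraries.

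Both subunit genes of the ATP-sensitive channel were read in both tissues. Kcnj8 levels in liver overlapped those of aorta, and its aorta minus liver log2 fold change was −0.45 ± 0.38 with E2 and −0.15 ± 0.30 with vehicle. Abcc9 levels in liver were 208.0, 304.2, 19.7 and 2.70 CPM with E2 and 162.0, 213.2, 22.0 and 18.1 CPM with vehicle. It was higher in aorta for each suffix and treatment, by 1.63 ± 0.61 with E2 and 1.02 ± 0.36 with vehicle. Its calls were lost under 10 of 16 alternatives with E2 and 11 of 16 with vehicle. The libraries whose omission ended the call were, with E2, liver o1, o2, n1 and n2 and aorta o2, n1 and n2, and with vehicle, liver o1, o2 and n2 and aorta o1, o2 and n1. The replicate block, which pairs libraries by suffix, ended it with vehicle (0.91 ± 0.34). Kcnj2 in liver stood at 53.3, 56.0, 0.978 and 0 CPM with E2 and at 47.8, 71.2, 1.502 and 0 CPM with vehicle. Its aorta minus liver difference was −0.34 ± 0.66 with E2 and −0.10 ± 0.68 with vehicle, and its sign depended on the library letter. Within the o libraries alone it was −1.43 ± 0.41 with E2 and −0.96 ± 0.33 with vehicle. Within the n libraries alone it was 1.10 ± 0.79 with E2 and 1.25 ± 1.20 with vehicle. Only the o value with E2 passed the thresholds, as 5368 of 12359 genes did in that fit.

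**Figure D3:**
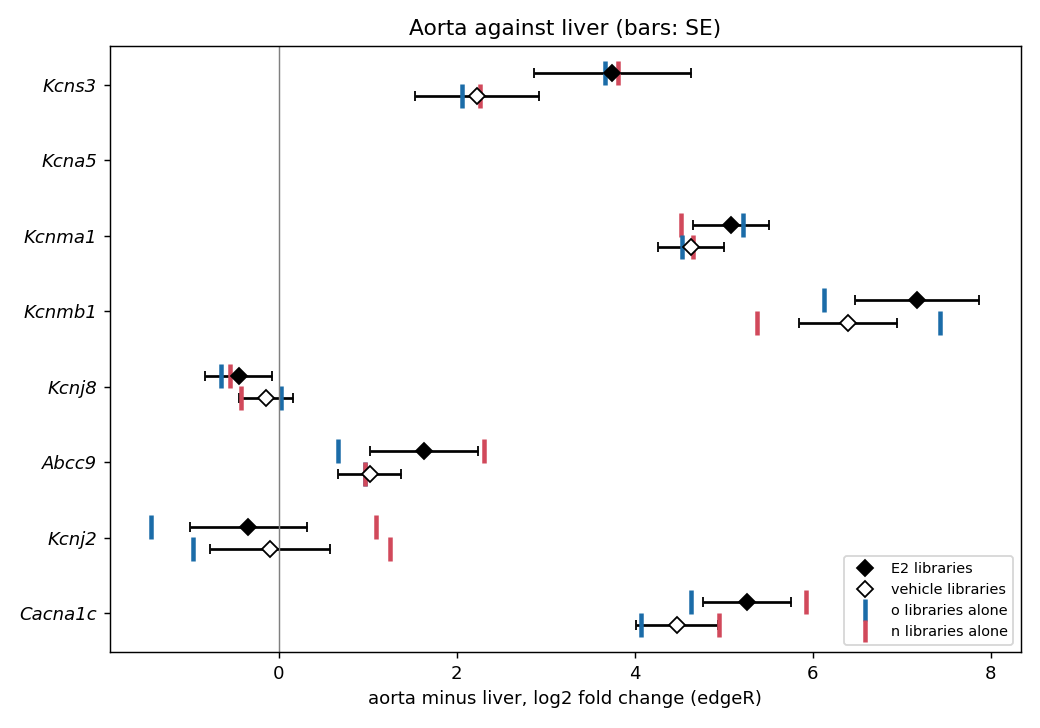
Aorta minus liver log2 fold change of each channel gene, with E2 (filled) and with vehicle (open), bars are SE; blue and red marks are fits within the o and the n libraries alone. Kcnmb1, Kcnma1 and Cacna1c lie above 4 in each fit shown, and the Kcnj2 marks lie on both sides of 0. Kcna5 is not drawn because it did not pass the filter over the o and n libraries together. No red mark is drawn for Kcnmb1 with E2 because both liver n libraries held 0 reads.

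The library letter moved most of the 8 genes further than E2 did. In aorta, 6 of 8 were called between the n and the o libraries, where 61% of 13698 genes were. Of these, 2 were higher in n, where 33% of all genes were, and 4 lower, where 28.1% were. Kcnj2 averaged 1.68 ± 0.846 CPM in n libraries and 26.4 ± 9.09 CPM in o libraries of aorta (SD, n = 4 each), a log2 fold change of −4.02 ± 0.37 (edgeR, adjusted p = 2.96e-06). Abcc9 averaged 53.7 ± 27.4 CPM in n and 390.1 ± 75.3 CPM in o libraries, with −3.01 ± 0.38 (adjusted p = 3.18e-05). Kcnma1 averaged 22.9 ± 5.56 CPM in n and 106.7 ± 20.8 CPM in o libraries, with −2.34 ± 0.25 (adjusted p = 8.84e-06), and Cacna1c came to −1.48 ± 0.30 (adjusted p = 0.000944). Kcnmb1 was lower in n by −0.93 ± 0.25 (adjusted p = 0.00618), short of the fold threshold, which it passed without vehicle o1, without vehicle n1 or without E2 o1. For these 5 genes every n library lay below every o library, as for 29.8% of genes tested. For Kcna5 every n library lay above every o library, as for 37.6%. It was higher in n by 2.12 ± 0.42 (adjusted p = 0.000799) and Kcns3 by 1.25 ± 0.41 (adjusted p = 0.0165), the second of which was not called without vehicle n1 (0.99), without E2 o1 (0.98) or without the treatment term. Kcnj8 was the one gene of the 8 close to even, at 0.25 ± 0.19 (adjusted p = 0.253). Since these fits hold E2 and vehicle libraries in equal number, the letter does not coincide with the treatment.

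**Figure D4:**
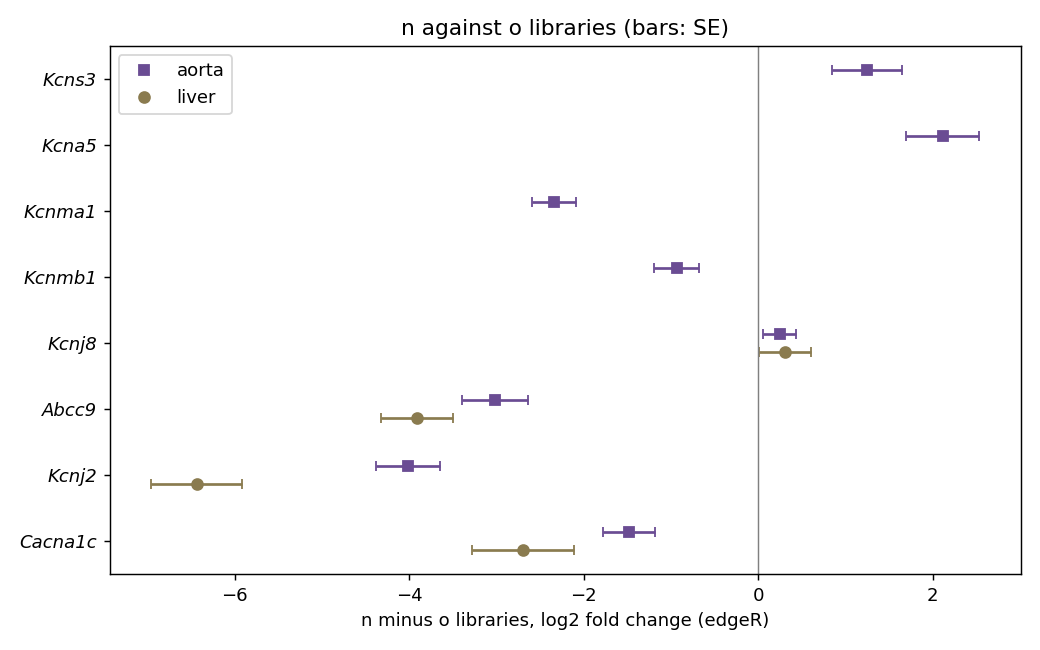
n minus o libraries, log2 fold change of each channel gene in aorta (squares) and liver (circles), bars are SE; genes without a circle did not pass the filter in liver. Kcnj2, Abcc9 and Cacna1c lie below 0 in both tissues, Kcnj8 lies near 0 in both, and Kcns3 and Kcna5 lie above 0 in aorta.

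In liver the same genes stood on the same side. Of the 4 tested, 3 were called, where 69.5% of 11726 genes were. Kcnj2, Abcc9 and Cacna1c were lower in n libraries, where 35.7% of all genes were called lower, and 0 were called higher, where 33.7% were. For these 3 every n library lay below every o library, as for 35.2% of genes tested, and for none did every n library lie above, as for 35.8%. Kcnj2 averaged 0.620 ± 0.747 CPM in n and 57.1 ± 10.0 CPM in o libraries of liver, with a log2 fold change of −6.43 ± 0.52 (edgeR, adjusted p = 6.04e-09). Abcc9 averaged 15.6 ± 8.75 CPM in n and 221.9 ± 59.5 CPM in o libraries, with −3.91 ± 0.41 (adjusted p = 1.31e-07). Cacna1c averaged 0.796 ± 0.470 CPM in n and 5.22 ± 1.96 CPM in o libraries, with −2.70 ± 0.58 (adjusted p = 0.000434). Kcnj8 came to 0.30 ± 0.30 (adjusted p = 0.358). Abcc9 shares 1.89% of its exon bases with an annotated gene on the opposite strand, and Kcnma1 5.98%. The strand setting of the counting is unknown here, so within those shared bases alone their reads and those of the partners cannot be told apart.

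The other genes of these channel families were taken from 7 lists holding 137 further genes, all of them in the table. In aorta 71 of them passed the filter, and none was called between E2 and vehicle: 38 had a positive and 33 a negative log2 fold change, with a median of 0.02. At an unadjusted p under 0.05 there were 3 with edgeR, 3 with DESeq2 and 3 with limma voom, and these tools called none. The 3 are 4.23% of the 71, beside 3.61% of all genes tested with edgeR, so they are named by rank and not as a result about the list. The 3 with edgeR were Cacnb2, Kcnk10 and Orai1. Cacnb2, the beta subunit that brings the L-type pore to the membrane, was 0.41 ± 0.15 higher, with 119.8 ± 81.0 CPM with E2 and 85.6 ± 51.3 CPM with vehicle, above in 4 of 4 suffixes (edgeR, adjusted p = 1.00). The two-pore channel gene Kcnk10 came to −1.32 ± 0.50, with 0.286 ± 0.175 CPM with E2 and 0.656 ± 0.227 CPM with vehicle (edgeR, adjusted p = 1.00). Orai1, the pore of store-operated calcium entry, came to −0.67 ± 0.28, with 11.02 ± 12.5 CPM with E2 and 18.4 ± 20.9 CPM with vehicle (edgeR, adjusted p = 1.00). By list, 9 of 13 tested voltage-gated potassium channel genes had a positive log2 fold change, 8 of 15 voltage-gated calcium channel genes, 4 of 7 silent and accessory subunits, 3 of 5 inward rectifier genes, 2 of 5 calcium-activated channel genes, 2 of 7 two-pore channel genes and 10 of 19 genes of calcium release, refill and entry. In liver 30 passed the filter, with 10 positive and 20 negative log2 fold changes, and none was called.

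Between aorta and liver many of these relatives differed. With E2, 27 of the 48 tested were called higher in aorta and 5 lower, beside 26.3% higher among all genes. With vehicle 24 of 47 were called higher and 7 lower, beside 24.1% higher among all genes. In liver alone 30 of the relatives passed the filter, so some of those tested here passed it through their aorta counts. Nothing is read from these shares. Cacna2d1, the alpha2delta subunit of the L-type channel, was 4.41 ± 0.49 higher in aorta with E2 and 3.91 ± 0.41 with vehicle. Cacnb2 was 4.64 ± 0.37 and 3.54 ± 0.30 higher. Both were named for their high level in aorta, which favoured this side. Of the 10 genes tested in the voltage-gated calcium channel list, 6 were called higher with E2 and 7 with vehicle, and 0 lower. Kcnk5, a two-pore channel gene, was lower in aorta, at −2.92 ± 0.52 with E2 and −3.24 ± 0.41 with vehicle. In aorta, 23 of the 71 tested were called higher and 21 lower in n than in o libraries, beside 33% and 28.1% of all genes tested. Cacna2d1 (−3.16 ± 0.34) and Cacnb2 (−1.86 ± 0.21) were lower in n together with Cacna1c, whereas the potassium channel genes Kcnh2 (2.69 ± 0.24) and Kcne4 (4.24 ± 0.46) were higher.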

How the data were processed

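The deposited table gives read counts by gene symbol. These deposited values were handled as estimated counts, since a percentage closes each column, and rounding altered no value. The submitters' processing notes name Bowtie 0.12.5, the mm9 build, HTSeq 0.4.5p7 and edgeR 3.4.2. Annotation, strand setting and read filters: not given in the sources used here. Besides 24011 genes the table has 8 lines that name no gene. These were dropped, and they include the reads outside annotated genes, 48.0% to 75.2% of a library. Reads in genes were 24.7% to 51.6%. Columns were assigned to groups by the tissue and treatment in their names.

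The main test was edgeR 4.0.16 under R 4.3.3 (glmQLFit and glmQLFTest, TMM normalization, filterByExpr with minimum count 10 and minimum total 15) over all genes that passed, with Benjamini-Hochberg adjustment. A batch of 3 levels (o1, o2, n) was a covariate, and treatment in its place where n and o were compared. SEs were derived from the F statistic of each test. Differences between suffixes use log2(CPM + 1). The code was tested on simulated counts with 200 changed genes. The alternatives were DESeq2 1.42.0 and its size factors, limma 3.58.1 voom, no filter, no batch or treatment term, the replicate block, o or n libraries alone, and each library left out; leaving out both libraries of a suffix was added after seeing the data. A permutation test planned for the subunit ratios is not read, since the choice of genes used that contrast. No replicates in 24 pairs held identical values. Whether replicates came from separate animals is not stated for these columns, so p-values measure the spread between libraries. Intervals from a count of 0 cover counting error only.

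The suffixes were checked as pairs by correlating the deviations of E2 and vehicle libraries from their group means across genes. The 4 aorta correlations were 0.91 (o1), 0.93 (o2), 0.92 (n1) and 0.89 (n2), and 0.51 within o and 0.43 within n once letter means were removed. The liver ones were 0.92, 0.87, 0.92 and 0.88, and 0.30 within o and −0.05 within n. The higher values mostly reflect the library letter, so pairing by suffix is an assumption.

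The 8 genes and the channel and marker lists were chosen with earlier results of these data known. All 8 genes are named; of the other channel genes, the rule names the 2 with the highest aorta level in each list and the 3 with the lowest p for E2 in aorta, and values are given for those that bear on the 8. Sequences are from RefSeq on GRCm38.p6 and matched all 8 genes. Only the beginning of the part after the listed start of each window was searched for in GENCODE M21 transcripts. It was found for 10 of 11 windows, all but the Kcna5 window.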

Additional observations from a re-analysis of the deposited data

Results flagged for a closer look

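Among the 32 sets of 4 libraries checked (8 genes in 4 groups), 3 held a library far from the other 3, a gap that chance gives in about 5% of such sets. All 3 are n2 libraries of liver. Kcns3 stood at 3.38 CPM in liver n2 with E2, where the next library was at 0.576 CPM, and this is 10 reads. Kcna5 stood at 0.676 CPM in liver n2 with E2, against 0.101 CPM in the next library, and at 0.317 CPM in liver n2 with vehicle, where the other 3 libraries were at 0. Both Kcna5 values are 2 reads. Liver n2 with E2 is the shallowest of the 16 libraries, at 3896733 gene reads.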

How the results depend on the processing

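The limits are the few reads of Kcns3, Kcna5 and Kcnmb1 in liver, 4 libraries per group, and the gap between o and n libraries. For Kcns3, E2 minus vehicle in aorta ran from 1.35 to 2.00 over 20 alternatives. In liver with E2, Abcc9 turned positive with limma voom (0.0628), without the batch term (0.38) and in the o libraries alone (0.45), was −0.82 in the n libraries alone, and ran from −0.36 to 0.26 with libraries left out; Kcnj2 ran from −0.27 to 0.14. For aorta against liver with E2, Kcnj2 turned to 1.10 in the n libraries alone and ran from −0.83 to 0.28 with a library left out. With vehicle, Kcnj2 turned to 0.0625 with DESeq2 and 1.25 in the n libraries alone and ran from −0.67 to 0.63, and Kcnj8 turned to 0.0247 in the o libraries alone and ran from −0.20 to 0.0795. None of these Abcc9, Kcnj2 and Kcnj8 values was past the threshold, and the cause was not tested. Kcnj2 did pass the thresholds for aorta against liver with E2 in the o libraries alone, at −1.43. Levels in aorta were in view when the 8 genes were chosen, and Kcnmb1, Kcnma1 and Kcns3 passed the filter through their aorta counts. Nothing is thus read from the number of the 8 called between aorta and liver. It was 5 with E2, where 48.3% of 13061 genes were called, and 5 with vehicle, where 47.5% of 12607 were. Without the batch term it was 3 with E2, where 2655 of 13061 genes were called, and 3 with vehicle, where 2447 of 12607 were. In the o libraries alone with vehicle it was 3, where 5523 of 12473 genes were called. With a vehicle library left out it was 3 to 5, where 5473 of 13128 to 6011 of 12676 genes were called. Of the other channel genes, 32 of 48 tested were called with E2 and 31 of 47 with vehicle. These fell to 21 and 14 without the batch term. Between n and o in liver it was 23 of 30, and 39 of 105 without the filter. Among all genes, those last 2 fits called 8147 of 11726 and 9147 of 17298. For E2 against vehicle in aorta, Kcns3 was called with DESeq2 (24 of 13698 genes called), without vehicle n2 (17 of 13867) and without both n2 libraries (35 of 13021). No other of the 8 was called under any alternative. Since the 8 genes were chosen with this contrast in view, nothing is read from these calls. The replicate block changed no call of E2 against vehicle among channel genes (0 in aorta, 0 in liver). Blocked, 5 of the 8 genes and 30 other channel genes were called between aorta and liver with E2, and 4 and 27 with vehicle. Those fits called 5706 of 13061 and 5844 of 12607 genes. No paired analysis was possible between n and o because a suffix belongs to 1 letter only.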
